A study of Danio rerio with 12 samples.

Results

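GATA and RUNX proteins are transcription factors that steer blood formation and several other lineages. The 9 genes described here are gata1a, gata2a, gata2b and gata3, then runx1, runx2a, runx2b and runx3, and cbfb. They were chosen by name and not by a rule on their values, though earlier results of these data were known. Each was matched by symbol to 1 of the 32047 gene identifiers in the deposited tables, of which 28978 had a symbol in the name table. GATA proteins bind DNA through zinc fingers, and RUNX proteins bind it through a Runt domain. CBFB does not bind DNA itself: it is the shared partner that raises the DNA affinity of RUNX proteins. The fish genome kept duplicate copies of several of these genes, such as gata2a with gata2b and runx2a with runx2b.

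Messenger RNA was profiled in 12 Quartz-seq libraries of cells from the kidney of adult wild-type zebrafish, the main blood-forming organ of adult fish. Quartz-seq copies RNA of few cells from an oligo-dT primer and amplifies the product by PCR. A niche set held ZKS cells, pericytes, whose titles give pdgfrb, and sinusoids, whose titles give high Ac-LDL (acetylated low-density lipoprotein). The other set held cells positive for both gata2a and runx1 (gata2a+ runx1+, DP for double positive), either co-cultured with ZKS cells in IWR-1-endo plus Thpo (the treated group), co-cultured with ZKS cells alone, or uncultured, with 2 libraries in each of the 6 groups. IWR-1-endo is an inhibitor of Wnt signalling and Thpo is thrombopoietin, a cytokine of blood formation. The labels list the genotype of every group as wild type and do not say how gata2a and runx1 were read for the sort, whether cultured DP cells were sorted again by these genes, or whether ZKS cells, a name also used for a stromal line from zebrafish kidney, had been kept in culture. The labels do not say that the 2 libraries of a group are from different animals, so each p-value measures the spread between libraries alone, and that spread can be technical.

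Niche libraries ranged over 6984492 to 16242092 reads and 15545 to 20626 genes above 0, while the DP libraries had 7329 to 9712 genes above 0 and an unknown depth. Values are CPM, which are reads per gene scaled so that every library has the same total. CPM is not divided by gene length, so it is compared here between libraries and not between genes. Of 17 housekeeping genes above 0 in every niche library, treated DP libraries listed 1 and 2 at 0, co-cultured ones 2 and 0, and uncultured ones 0 and 0. A DP value of 0 is therefore given as listed at 0 and not as absence. The 11 endothelial markers summed to 131.5 and 115.6 CPM in ZKS cells, to 119.9 and 192.4 CPM in pericytes, but to 14880 and 14720 CPM in sinusoids. The 14 mural marker identifiers summed to 157.2 and 196.8 CPM in ZKS cells, against 2804 and 2089 CPM in pericytes and, in sinusoids, 751.1 and 1242 CPM. Most of the sinusoid sum came from rgs5b, at 275.42 and 568.03 CPM, and TAGLN (ENSDARG00000033466), at 202.88 and 372.98 CPM. Neither was called between pericytes and sinusoids. Of 13 mural identifiers tested there, 9 rose in pericytes, 1 fell and 3 were not called. The 16 macrophage marker identifiers summed to 0.87 and 1.3 CPM in ZKS cells, against 3933 and 5300 CPM in pericytes and, in sinusoids, 555.6 and 1098 CPM. That sum does not order pericytes and sinusoids by macrophage RNA: cd74a, of antigen presentation, gave 2432.23 and 3250.92 CPM of it in pericytes, while the myeloid factor IRF8 was lower there, at 58.09 and 97.36 CPM, against 226.51 and 636.62 CPM in sinusoids. In bulk libraries, fewer cells of a type and less RNA per cell cannot be told apart.

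**Figure D1:**
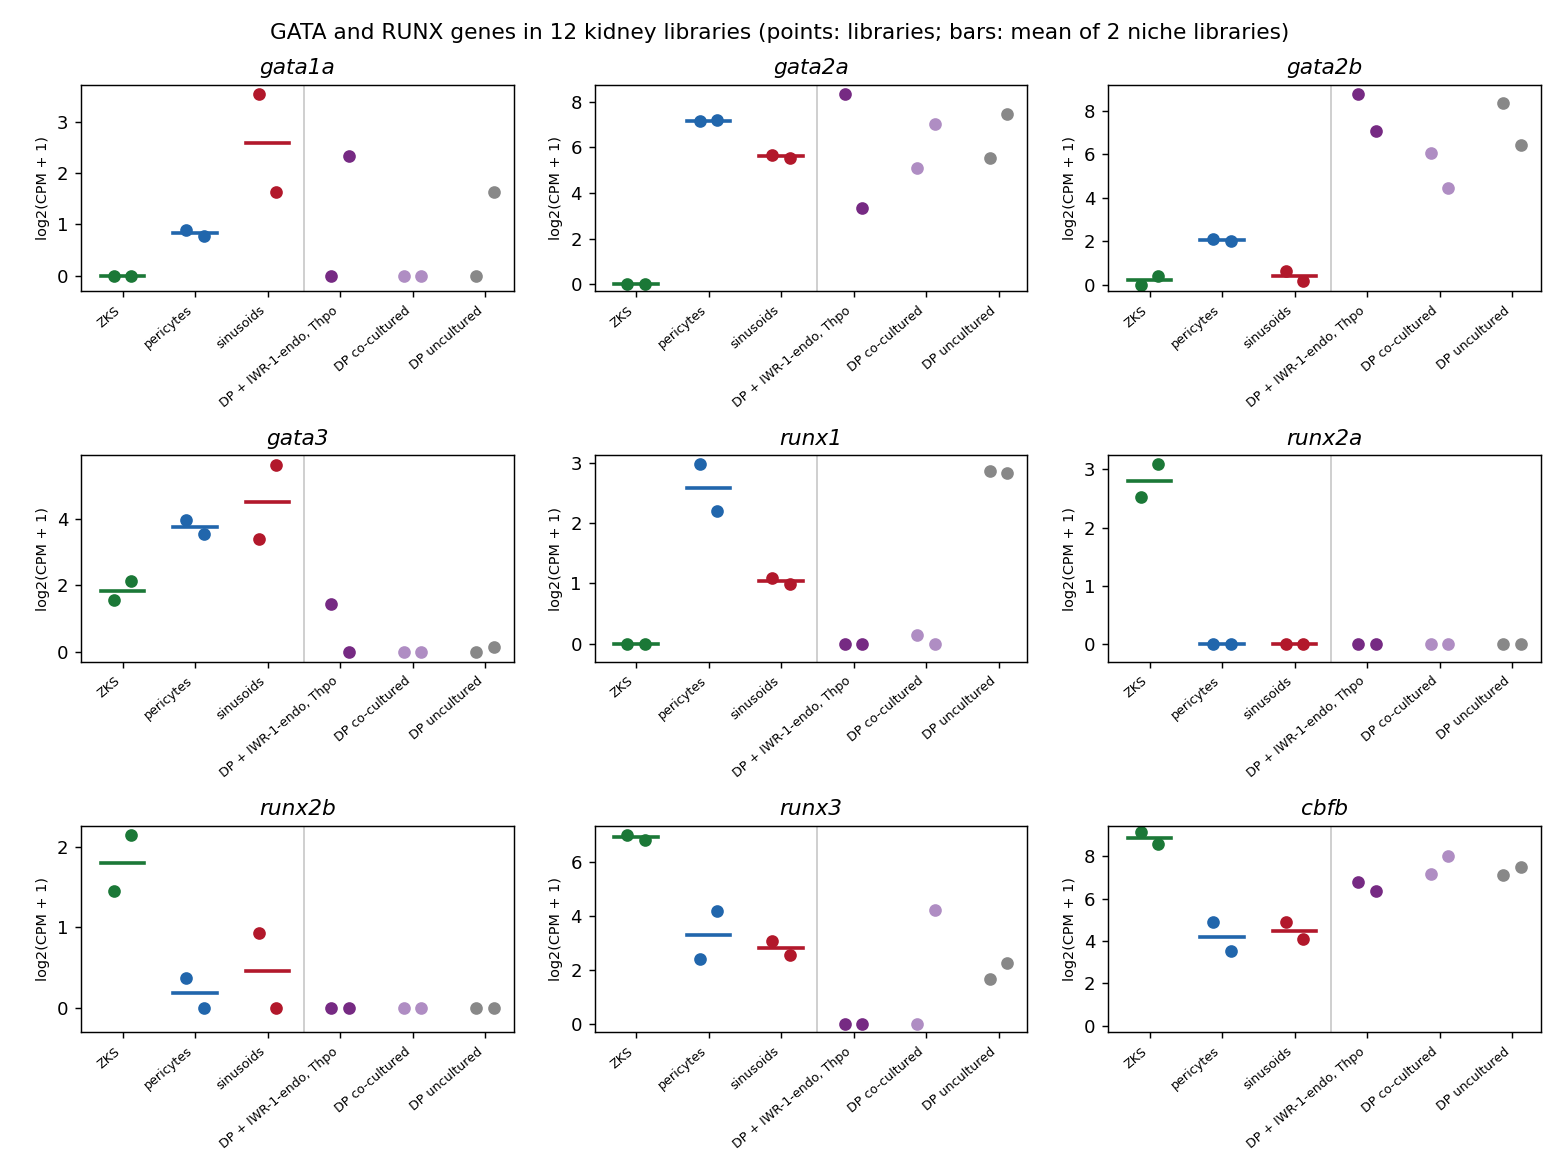
Level of each of the 9 genes as log2(CPM + 1) in each library, 1 panel per gene, with points for libraries and bars for the mean of the 2 libraries of a niche group. The vertical line parts the niche set from the DP set. runx2a is above 0 in the 2 ZKS libraries and at 0 in the others, gata2a is at 0 in the 2 ZKS libraries and above 0 in the others, and gata2b lies highest in the DP libraries.

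The first question was how the family was set in ZKS cells against the other niche groups. In ZKS cells runx2a, runx2b, runx3 and cbfb were higher than in pericytes, and gata2a, gata2b and runx1 were lower. With limma on log2(CPM + 1) and adjustment over all genes tested, 4 of the 9 genes rose and 3 fell in ZKS cells against pericytes. Among all 15916 genes tested, 37.2% were called in that comparison. Against sinusoids 3 of the 9 rose (runx2a, runx3, cbfb) and 3 fell (gata1a, gata2a, gata3), where 31.6% of all genes were called. All 9 genes passed the filter on low values, but gata1a, gata2b, runx2a and runx2b passed it through 1 group alone, so these counts are a description. For runx2a and runx2b that group was ZKS cells, so neither could be tested once a ZKS replicate was left out. Without ZKS replicate 1, and likewise without ZKS replicate 2, 2 of the genes were called against pericytes and 3 against sinusoids. The median log2 change of the 9 genes was -0.90 against pericytes and -0.21 against sinusoids, where the medians over all genes tested were -0.153 and -0.116. Of the genes called against pericytes, 40.8% were higher in ZKS cells, or 51.2% where the deposited CPM were tested without TMM scaling (trimmed mean of M-values).

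**Figure D2:**
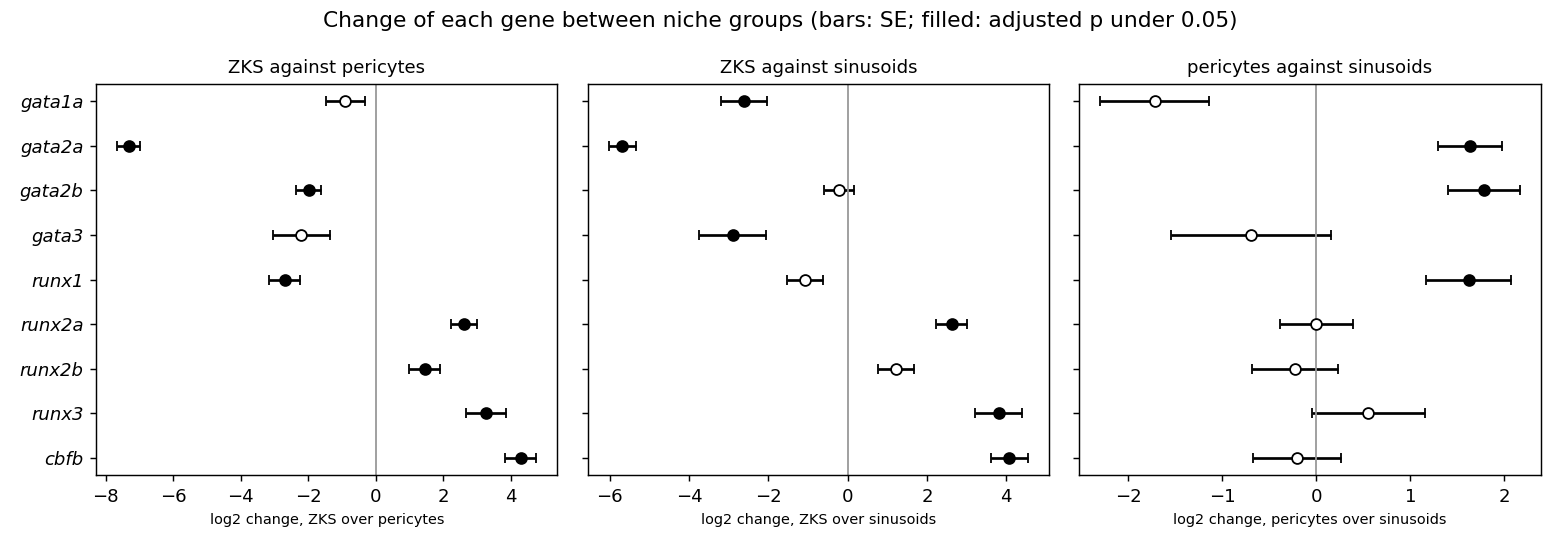
Log2 change of each of the 9 genes on the log2(CPM + 1) scale for the 3 comparisons between niche groups, the first-named group over the second, with bars for the SE and filled points for an adjusted p under 0.05. In ZKS cells gata2a lies furthest to the left and cbfb furthest to the right in both comparisons. The axes of the 3 panels differ in range.

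gata2a (ENSDARG00000059327) encodes a GATA2 factor, which maintains blood stem and progenitor cells and is also used by endothelium. It was at 0 and 0 CPM in ZKS cells, against 140.44 and 146.9 CPM in pericytes and, in sinusoids, 50.33 and 45.99 CPM. The 3 niche groups did not overlap. ZKS cells were at least 443-fold below pericytes and at least 149-fold below sinusoids, taking a floor of 3 reads per library (0.324 CPM in ZKS replicate 1). The log2 change was -7.32 ± 0.34 against pericytes (SE, adjusted p = 8.22e-05) and -5.69 ± 0.34 against sinusoids (adjusted p = 0.000116). Both calls held under each of the 13 alternatives tried.

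Pericytes were also set against sinusoids, to ask how the mural and the vascular niche groups differ. There gata2a averaged 144 ± 4.57 CPM in pericytes and 48.2 ± 3.07 CPM in sinusoids (SD, n = 2 each), 2.98-fold higher in pericytes (log2 change 1.63 ± 0.34, adjusted p = 0.0157). In this comparison 3 of the 9 genes rose (gata2a, gata2b, runx1) and 0 fell, where 25.4% of all genes were called. Fewer of the 9 were called without pericyte replicate 1, pericyte replicate 2 or sinusoid replicate 2. Without pericyte replicate 1 none of these calls held. There gata2a and runx1 were not called, gata2b could not be tested, and runx3 was called instead. The gata2a call was lost in 4 of the 13 alternatives, among them without pericyte replicate 1 or 2, and its adjusted p ran from 0.00758 to 0.672. Pericytes held less of the endothelial and more of the mural marker sum than sinusoids. Of 12 macrophage marker identifiers tested, 4 rose in pericytes against sinusoids (cd74a, cd74b and a pair of MFAP4 identifiers) and 3 fell (IRF8 and another pair of MFAP4 identifiers). The part of other cell types in the gata2a level was not tested.

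gata2b (ENSDARG00000009094) is the second GATA2 copy, which in zebrafish embryos acts upstream of runx1 in the endothelium that forms blood. Its niche level was low: 0 and 0.3 CPM in ZKS cells (0 and 3 reads), against 3.28 and 3.01 CPM in pericytes (23 and 21 reads) and, in sinusoids, 0.52 and 0.12 CPM (7 and 2 reads). Pericytes stood above both other groups without overlap, while ZKS cells and sinusoids overlapped. The gene passed the filter through pericytes alone, so its tests describe the group that let it in. The change was -1.99 ± 0.38 in ZKS cells against pericytes (adjusted p = 0.00782) and 1.78 ± 0.38 in pericytes against sinusoids (adjusted p = 0.0162). The first call was lost in 4 of the 10 alternatives that could test it, among them without ZKS replicate 1 or 2. Its adjusted p ran from 0.00771 to 0.198. The second call was also lost in 4 of 10, among them without sinusoid replicate 2, in a range of 0.0141 to 0.31.

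In DP cells gata2b was far above its niche level. It was listed at 431.9 and 134.4 CPM in treated, 66.0 and 20.7 CPM in co-cultured and 325.2 and 85.5 CPM in uncultured DP libraries, so the lowest DP library was above the highest niche library. By group mean the order was treated DP, uncultured DP, co-cultured DP, pericytes, sinusoids and ZKS cells. Neighbours overlapped between treated and uncultured DP cells and between sinusoids and ZKS cells, and stood apart at the other steps. No test was made across the sets, whose depth and rounding differ. gata2a, a gene by which these cells were sorted, was listed at 319.8 and 9.1 CPM in treated, 33.1 and 127.9 CPM in co-cultured and 45.3 and 177.5 CPM in uncultured DP libraries. By group mean, gata2a was ordered as treated DP, pericytes, uncultured DP, co-cultured DP, sinusoids and ZKS cells, with ranges that overlapped from each group to the next except at the last step.

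The balance between the GATA2 copies separated the DP libraries from those of pericytes and sinusoids. The ratio of gata2b to gata2a CPM was 0.0234 and 0.0205 in pericytes and 0.0103 and 0.00261 in sinusoids. In the DP libraries it was 1.35 and 14.8 in treated, 1.99 and 0.162 in co-cultured and 7.18 and 0.482 in uncultured cells. Every DP ratio was above every pericyte and sinusoid ratio, and the 3 DP groups overlapped. In ZKS cells gata2a was at 0, so no ratio is given. The ratio divides by gata2a, a gene by which DP cells were sorted, and the sets differ in depth and rounding. As a share of the summed CPM of both copies, gata2b made up 57.5% and 93.7% in treated, 66.6% and 13.9% in co-cultured and 87.8% and 32.5% in uncultured DP libraries, against 2.28% and 2.01% in pericytes and 1.02% and 0.26% in sinusoids. These shares compare libraries; with no division by length they do not give molecules of one copy per molecule of the other.

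**Figure D3:**
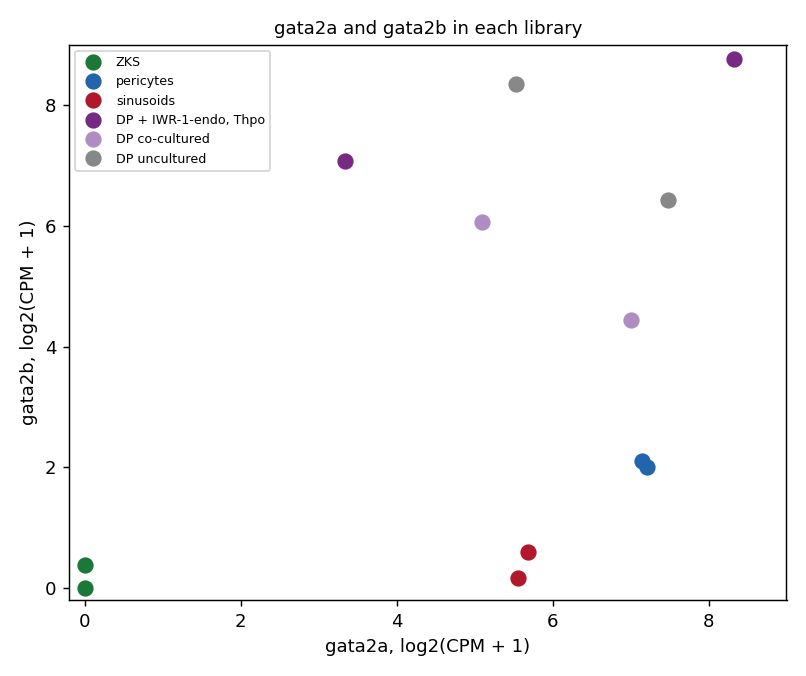
gata2b against gata2a as log2(CPM + 1), 1 point per library, coloured by group. The pericyte and sinusoid libraries lie low on the gata2b axis at gata2a levels within the range of the DP libraries, the 6 DP libraries lie above 20 CPM of gata2b, and the ZKS libraries lie at or near the origin.

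gata1a (ENSDARG00000013477), a driver of red cell and thrombocyte formation, was at 0 and 0 CPM in ZKS cells, against 0.86 and 0.72 CPM in pericytes (6 and 5 reads) and, in sinusoids, 10.62 and 2.09 CPM (142 and 34 reads). The groups did not overlap. The gene passed the filter through sinusoids alone, so its tests describe the group that let it in. ZKS cells were at least 19.6-fold below sinusoids (log2 change -2.62 ± 0.58, adjusted p = 0.0148). That call was lost in 4 of the 10 alternatives that could test it, among them without ZKS replicate 1 or 2. Pericytes did not pass the test against sinusoids (-1.72 ± 0.58, adjusted p = 0.0715), nor ZKS cells against pericytes (-0.90 ± 0.58, adjusted p = 0.259). In DP cells gata1a was listed at 0 and 4.0 CPM in treated, 0 and 0 CPM in co-cultured and 0 and 2.1 CPM in uncultured libraries.

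Red cell genes that GATA1 acts on were read through a list of erythroid targets. Of 17 tested, 1 rose and 8 fell in ZKS cells against pericytes (median log2 change -2.09), and 1 rose and 10 fell against sinusoids (median -2.19), where 37.2% and 31.6% of all genes were called. The largest fall was that of hbaa1, an alpha globin gene, at 0.11 and 0 CPM in ZKS cells, against 145.15 and 239.96 CPM in pericytes and, in sinusoids, 1031.92 and 483.44 CPM (-7.63 ± 0.38 against pericytes, adjusted p = 9.6e-05, and -9.48 ± 0.38 against sinusoids, adjusted p = 4.44e-05). The 1 gene that rose was TMOD4, a tropomodulin that caps actin filaments and is known from muscle, at 161.54 and 208.69 CPM in ZKS cells. In pericytes against sinusoids 0 rose, 4 fell and 13 were not called (median -1.19), a share near the 25.4% of all genes called there. The largest called fall was again not a globin but TMOD4 (-2.26 ± 0.51, adjusted p = 0.0208). Erythroid markers summed to 2635 and 1023 CPM in sinusoids, and gata1a was likewise higher in sinusoid replicate 1 than in replicate 2; how far red cells or their RNA set the gata1a level was not tested.

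gata3 (ENSDARG00000016526) is known in mammals for T helper and type 2 innate lymphoid cells, and also for the ducts of the developing kidney. It was at 1.94 and 3.34 CPM in ZKS cells (18 and 33 reads), against 14.56 and 10.74 CPM in pericytes and, in sinusoids, 9.5 and 48.27 CPM, so ZKS cells lay below both other groups and the sinusoid libraries lay on both sides of the pericytes. ZKS cells fell against sinusoids (log2 change -2.90 ± 0.85, adjusted p = 0.041), but not past the threshold against pericytes (-2.20 ± 0.85, adjusted p = 0.0844). The first call was lost in 8 of 13 alternatives, among them without sinusoid replicate 2 (-1.58, adjusted p = 0.0958), without ZKS replicate 1 (adjusted p = 0.182) and without ZKS replicate 2 (adjusted p = 0.12), in a range of 0.00453 to 0.182. Pericytes against sinusoids gave -0.70 ± 0.85 (adjusted p = 0.594), and -1.97 without sinusoid replicate 1 (adjusted p = 0.0443, in a range of 0.0443 to 0.827).

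Renal tubule markers were read beside gata3 in the sinusoid libraries. The genes below were picked after their values were seen. In sinusoid replicate 2, where gata3 was at 48.27 CPM, cdh17, a cadherin of the tubule, was at 0.12 CPM, and slc12a3, clcnk and emx1 were at 0. In sinusoid replicate 1, where gata3 was at 9.5 CPM, cdh17 was at 365.76 CPM. Of 22 renal tubule marker identifiers, 8 were above 0 in sinusoid replicate 2 and 19 in replicate 1. Fewer genes of any kind were above 0 in replicate 2, 16474 against 20626 in replicate 1. The marker sums were 2037 and 3011 CPM. Most of both sums came from 1 identifier each of SLC20A1, at 1076.34 CPM in replicate 2 and 997.37 CPM in replicate 1, and ATP1B1, at 957.76 and 1339.57 CPM. The part of tubule cells in the gata3 level was not tested. In DP cells gata3 was listed at 1.7 and 0 CPM in treated, 0 and 0 CPM in co-cultured and 0 and 0.1 CPM in uncultured libraries, below every niche library.

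runx1 (ENSDARG00000087646) is required for blood stem cells to form in the embryo. It was at 0 and 0 CPM in ZKS cells, against 6.85 and 3.58 CPM in pericytes (48 and 25 reads) and, in sinusoids, 1.12 and 0.99 CPM (15 and 16 reads), with no overlap between groups. ZKS cells were at least 16.1-fold below pericytes (log2 change -2.70 ± 0.45, adjusted p = 0.00517) and at least 3.26-fold below sinusoids, where the change missed the threshold (-1.08 ± 0.45, adjusted p = 0.116). Pericytes averaged 5.21 ± 2.31 CPM and sinusoids 1.06 ± 0.0919 CPM (SD, n = 2 each), 4.94-fold higher in pericytes (1.62 ± 0.45, adjusted p = 0.0408). The ZKS call against pericytes was lost in 3 of 12 alternatives, among them without ZKS replicate 1 or 2, with an adjusted p of 0.00067 to 0.0922. The pericyte call against sinusoids was lost in 8 of 12 alternatives, including those without pericyte replicate 1 (adjusted p = 0.097), sinusoid replicate 1 (adjusted p = 0.082) or sinusoid replicate 2 (adjusted p = 0.0923), in a range of 0.011 to 0.276.

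In DP cells, culture was compared with the uncultured state to ask what co-culture with ZKS cells, alone or with IWR-1-endo and Thpo, changed. runx1, the other gene of the sort, was listed at 0 and 0 CPM in treated, 0.1 and 0 CPM in co-cultured and 6.3 and 6.1 CPM in uncultured libraries. The cultured libraries did not overlap with the uncultured ones, yet the change did not pass adjustment over all genes: -2.93 ± 0.64 in treated against uncultured (adjusted p = 0.144) and -2.87 ± 0.64 in co-cultured against uncultured cells (adjusted p = 0.168). Both comparisons share the uncultured libraries. With all 12 libraries in 1 fit, which takes the spread from the niche groups too, the adjusted p was 0.0034 and 0.00429, in ranges over the alternatives of 0.0034 to 0.546 and 0.00429 to 0.661. runx1 passed the filter through the uncultured group alone. Because runx1 was used to sort DP cells, its level in the uncultured libraries is no finding. In every fit, the 12-library fit included, a fall in culture cannot be told apart from that selection.

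The limma fit called 0 of 8795 genes (0%) in each DP comparison, and so 0 of the 6 tested family members. At an unadjusted p under 0.05 it gave 1183 genes in treated against uncultured, 996 in co-cultured against uncultured and 844 in treated against co-cultured cells. gata2b showed the largest remaining differences, 2.55 ± 1.13 in treated against co-cultured (adjusted p = 0.59) and -2.23 ± 1.13 in co-cultured against uncultured cells (adjusted p = 0.615). The SE of gata2a was 1.92 in each DP comparison, so changes of several fold in this gene could not be resolved with 2 libraries a group. gata3, runx2a and runx2b did not pass the filter in DP cells.

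Other blood genes with GATA2 or RUNX1 input were followed through the list of 17 stem and progenitor genes. Of 15 tested, 1 rose and 5 fell in ZKS cells against pericytes (median log2 change -1.21), and 2 rose and 5 fell against sinusoids (median -1.26), beside 37.2% and 31.6% of all genes called. The largest fall was that of cd34, a surface sialomucin of progenitors and vessels, at 0.11 and 0.4 CPM in ZKS cells, against 1695.75 and 1539.84 CPM in pericytes and, in sinusoids, 71.49 and 46.36 CPM (-10.52 ± 0.28 against pericytes, adjusted p = 2.42e-05, and -5.67 ± 0.28 against sinusoids, adjusted p = 7.44e-05). The largest rise against pericytes was that of HLF (hlfb), at 2.59 and 3.14 CPM in ZKS cells, against 0.57 and 0 CPM in pericytes (1.44 ± 0.41, adjusted p = 0.0337). HLF passed the filter through ZKS cells alone, so its test describes the group that let it in. Its other copy, hlfa, picked after its values were seen, fell against pericytes (-2.69 ± 0.48, adjusted p = 0.00629). The largest rise against sinusoids was that of MEIS1 (meis1b, 2.78 ± 0.30, adjusted p = 0.000953). HLF and MEIS1 are transcription factors used by stem cells. In pericytes against sinusoids, where 25.4% of all genes were called, 3 rose and 2 fell, led by cd34 (4.86 ± 0.28, adjusted p = 2e-04) and by LMO2 on the lower side (-3.21 ± 0.57, adjusted p = 0.00933). In the DP comparisons 12 of the 17 were tested and 0 called, although itga2b, the integrin of thrombocytes and early progenitors, was listed at 0 in the 4 cultured libraries and at 36.9 and 63.5 CPM in the uncultured ones (-5.72 ± 1.14 in both, adjusted p = 0.144 in treated and 0.168 in co-cultured cells). itga2b was picked after its values were seen and passed the DP filter through the uncultured group alone, so its tests describe the group that let it in.

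runx2a (ENSDARG00000040261, RUNX2 in the name table) encodes a copy of the factor that commits cells to bone. It was at 4.75 and 7.49 CPM in ZKS cells (44 and 74 reads) and at 0 in the 10 other libraries. The bound was at least 14.2-fold above pericytes (log2 change 2.62 ± 0.39, adjusted p = 0.00322) and at least 27.3-fold above sinusoids (2.62 ± 0.39, adjusted p = 0.00324). It passed the filter through ZKS cells alone, as did runx2b, so the p-values of both describe the group that let them in. runx2b (ENSDARG00000059233), the other copy, was at 1.73 and 3.44 CPM in ZKS cells (16 and 34 reads), 0.29 and 0 CPM in pericytes (2 and 0 reads), 0.9 and 0 CPM in sinusoids (12 and 0 reads) and 0 in the 6 DP libraries. ZKS cells lay above the other groups without overlap, with 1.45 ± 0.46 against pericytes (adjusted p = 0.0467) and 1.22 ± 0.46 against sinusoids (adjusted p = 0.088). The first was lost in 6 of 9 alternatives, among them without pericyte replicate 1 (adjusted p = 0.0957) or 2 (adjusted p = 0.179), in a range of 0.0165 to 0.179.

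Bone genes with RUNX2 input moved both ways in ZKS cells. Of 19 identifiers tested from a list of 20, 7 rose and 9 fell against pericytes (median log2 change -0.47), and 13 rose and 2 fell against sinusoids (median 3.79), beside 37.2% and 31.6% of all genes called. mmp13b, a collagenase gene, gave the largest rise against pericytes, at 171.91 and 157.68 CPM in ZKS cells, against 0 and 1.15 CPM in pericytes (6.56 ± 0.59, adjusted p = 0.000597). DLX3 (dlx3b), a homeobox gene of bone and placode, gave the largest rise against sinusoids, at 835.56 and 691.85 CPM in ZKS cells, against 2.32 and 0 CPM in sinusoids (8.54 ± 0.82, adjusted p = 0.000642). SP7, the osteoblast factor that acts after RUNX2, was picked after its values were seen: it was at 11.66 and 7.29 CPM in ZKS cells and at 0 in the 10 other libraries.

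The largest fall against pericytes was that of COL1A1 (col1a1b), a chain of fibrillar collagen, at 14.04 and 13.66 CPM in ZKS cells, against 8486.03 and 7777.52 CPM in pericytes (-9.44 ± 0.28, adjusted p = 3e-05). Against sinusoids some other matrix genes, picked after their values were seen, rose in ZKS cells. On the log2 scale col1a1a rose by 4.88, COL1A2 by 3.79 and SPARC by 3.22. COL1A1 (col1a1b) was not called against sinusoids (-0.29 ± 0.28, adjusted p = 0.474). POSTN rose at ENSDARG00000104267 (3.61) but fell at ENSDARG00000043806 (-1.38). There the largest fall was that of mmp13a, the other copy of that gene, which is also on the list of neutrophil markers (-4.81 ± 0.72, adjusted p = 0.00341). bglap, the osteocalcin gene of mature bone, was at 0 in all 12 libraries. In pericytes against sinusoids, with 25.4% of all genes called, 10 rose, led by COL1A1 (9.16 ± 0.28, adjusted p = 7.34e-05), and 0 fell.

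DP cells were co-cultured with ZKS cells, so genes high in ZKS cells, picked here after their values were seen, were read in the cultured DP libraries. runx2a, SP7, DLX3, mmp13b, DLX5 and ihha were each listed at 0 in all 4 cultured DP libraries. PHEX, an endopeptidase gene of bone mineral control, was at 417.78 and 333.28 CPM in ZKS cells and listed at 0.7 and 0 CPM in treated, 0 and 0 CPM in co-cultured and 0 and 5.1 CPM in uncultured DP libraries. MMP9, a gelatinase gene, was at 32561.21 and 27586.1 CPM in ZKS cells and listed at 0.1 and 192.6 CPM in treated, 7.1 and 112.3 CPM in co-cultured and 125.9 and 193.0 CPM in uncultured DP libraries, so uncultured cells, too, held it. Of the 20 bone identifiers, treated libraries had 1 and 0 above 0, co-cultured ones 1 and 1, and uncultured ones 0 and 2. The 1 in co-cultured replicate 2 was spp1, the osteopontin gene, at 108.7 CPM. The part of ZKS RNA in the cultured libraries was not tested, and a value listed at 0 there is not absence.

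**Figure D4:**
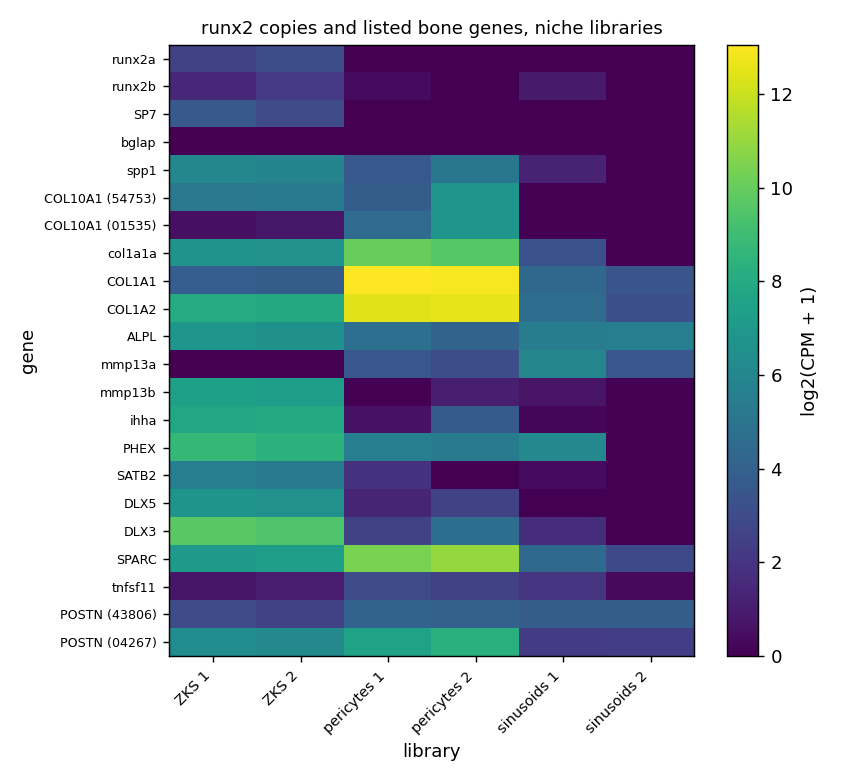
runx2a, runx2b and the listed bone genes as log2(CPM + 1) in the 6 niche libraries, 1 column per library, with the last digits of the identifier where copies share a symbol. The ZKS columns are bright for DLX3, PHEX, ihha and mmp13b, and the pericyte columns for COL1A1, COL1A2 and SPARC.

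runx3 (ENSDARG00000052826), known in mammals for cytotoxic T cells and sensory neurons, was at 126.34 and 113.25 CPM in ZKS cells (1170 and 1119 reads). Pericytes were at 4.28 and 17.47 CPM and sinusoids at 7.4 and 4.93 CPM, and these ranges overlapped. ZKS cells averaged 120 ± 9.26 CPM, 11.0-fold above the 10.9 ± 9.33 CPM of pericytes and 19.4-fold above the 6.17 ± 1.75 CPM of sinusoids (SD, n = 2 each). The log2 change was 3.26 ± 0.60 against pericytes (adjusted p = 0.00736) and 3.81 ± 0.60 against sinusoids (adjusted p = 0.00431). The call against pericytes was lost in 4 of 13 alternatives, among them without ZKS replicate 1 or 2, with an adjusted p of 0.00363 to 0.125. That against sinusoids was lost in 1 of 13 alternatives, the fit of all 12 libraries (adjusted p = 0.0852, in a range of 0.00122 to 0.0852). Pericytes against sinusoids gave 0.55 ± 0.60 (adjusted p = 0.551), and 1.48 without pericyte replicate 1 (adjusted p = 0.041, in a range of 0.041 to 0.94). In DP cells runx3 was listed at 0 and 0 CPM in treated, 0 and 17.6 CPM in co-cultured and 2.2 and 3.8 CPM in uncultured libraries.

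T cell genes were read beside runx3 and gata3. Of 8 tested identifiers of a list of T cell and innate lymphoid genes with GATA3 or RUNX3 input, 0 rose and 6 fell in ZKS cells against pericytes (median log2 change -2.27), and 0 rose and 5 fell against sinusoids (median -1.98), beside 37.2% and 31.6% of all genes called. The largest falls were those of TOX, a regulator of T cell development (-3.37 ± 0.69 against pericytes, adjusted p = 0.0108), and of ZAP70, a kinase of the T cell receptor (-4.43 ± 0.78 against sinusoids, adjusted p = 0.00665). In pericytes against sinusoids, where 25.4% of all genes were called, 0 of the 8 rose and 1 fell. The 1 was RAG1, which cuts receptor genes, at 0 and 0 CPM in pericytes, against 3.29 and 1.72 CPM in sinusoids (-1.81 ± 0.32, adjusted p = 0.00895). RAG1 passed the filter through sinusoids alone, so its test describes the group that let it in. The 7 T cell markers summed to 1.73 and 1.01 CPM in ZKS cells, against 30.4 and 15.04 CPM in pericytes and, in sinusoids, 37.32 and 35.28 CPM.

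cbfb (ENSDARG00000040917) was at 568.41 and 377.2 CPM in ZKS cells (5264 and 3727 reads), against 28.69 and 10.59 CPM in pericytes and, in sinusoids, 28.64 and 16.07 CPM. ZKS cells averaged 473 ± 135 CPM, 24.1-fold above the 19.6 ± 12.8 CPM of pericytes and 21.1-fold above the 22.4 ± 8.89 CPM of sinusoids (SD, n = 2 each). Pericytes and sinusoids overlapped (-0.21 ± 0.47, adjusted p = 0.779). The log2 change in ZKS cells was 4.29 ± 0.47 against pericytes (adjusted p = 0.00115) and 4.08 ± 0.47 against sinusoids (adjusted p = 0.00131), and both calls held in all 13 alternatives. DP libraries lay between, at 108.7 and 82.6 CPM in treated, 142.1 and 260.0 CPM in co-cultured and 135.9 and 178.4 CPM in uncultured cells. The treated libraries lay below the other DP libraries without overlap, but the change missed the threshold (-1.13 ± 0.75 against co-cultured, adjusted p = 0.769, and -0.91 ± 0.75 against uncultured, adjusted p = 0.726).

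For the other genes the order of group means over all 6 groups was as follows. gata1a ran from sinusoids through treated DP, uncultured DP and pericytes to ZKS and co-cultured DP cells, both at 0, and only pericytes and ZKS cells stood apart as neighbours. gata3 ran from sinusoids through pericytes, ZKS cells and treated DP to uncultured and co-cultured DP cells, with steps apart between pericytes and ZKS cells and between ZKS and treated DP cells. runx1 was highest in uncultured DP cells, which overlapped with pericytes, followed by sinusoids, co-cultured DP, ZKS and treated DP cells, and the last 3 did not differ beyond their spread. runx3 was highest in ZKS cells, which stood apart, followed by pericytes, co-cultured DP and sinusoids, which overlapped, then uncultured DP and treated DP cells, apart from each other. cbfb was highest in ZKS cells, followed by co-cultured DP with uncultured DP cells, which overlapped, then treated DP cells, and sinusoids with pericytes, which overlapped.

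The proteins that GATA and RUNX factors work with were then read. Of 22 tested identifiers of partner genes, 1 rose and 9 fell in ZKS cells against pericytes (median log2 change -0.97), and 2 rose and 11 fell against sinusoids (median -1.40), beside 37.2% and 31.6% of all genes called. Against pericytes the largest fall was that of spi1a, a copy of the myeloid factor PU.1, at 0 and 0 CPM in ZKS cells, against 64.51 and 17.75 CPM in pericytes (-5.27 ± 0.63, adjusted p = 0.00153). Against sinusoids it was that of FLI1 (fli1a), an ETS factor of blood and endothelium, at 0.65 and 1.21 CPM in ZKS cells, against 454.97 and 460.35 CPM in sinusoids (-8.08 ± 0.33, adjusted p = 4.44e-05). LDB1 (ENSDARG00000010137), the bridging protein of GATA complexes, was the 1 that rose against pericytes (1.03 ± 0.33, adjusted p = 0.0474), and the corepressor CBFA2T2 had the largest rise against sinusoids (3.78 ± 0.91, adjusted p = 0.0202). That LDB1 identifier also rose against sinusoids (1.91 ± 0.33, adjusted p = 0.00592). The other LDB1 identifier, ENSDARG00000103158, was not called against pericytes (0.77 ± 0.75, adjusted p = 0.45) or sinusoids (-0.74 ± 0.75, adjusted p = 0.493). In pericytes against sinusoids, with 25.4% of all genes called, 1 rose, TCF12 (1.59 ± 0.25, adjusted p = 0.00557), and 5 fell, led by ERG (-3.28 ± 0.40, adjusted p = 0.00245).

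In DP cells the GATA partners TAL1 and LMO2, named after their values were seen, were present in each library. TAL1 was listed at 298.1 and 326.1 CPM in treated, 377.3 and 242.5 CPM in co-cultured and 204.6 and 74.5 CPM in uncultured libraries. LMO2 was listed at 285.4 and 300.0 CPM in treated, 497.2 and 456.6 CPM in co-cultured and 133.0 and 117.1 CPM in uncultured libraries, so the 3 groups did not overlap (1.02 ± 0.51 in treated and 1.84 ± 0.51 in co-cultured against uncultured cells, adjusted p = 0.498 and 0.235). SPI1 (spi1b), also picked after its values were seen, was listed at 0 in the 4 cultured libraries and at 1.0 and 71.7 CPM in the uncultured ones. Its other copy, spi1a, was at 9.6 CPM in co-cultured replicate 1, at 0 in the other cultured libraries and at 2.4 and 82.3 CPM in the uncultured ones. Uncultured replicate 2, with most of both, also held the macrophage markers IRF8 at 130.5 CPM and csf1ra at 58.1 CPM. IRF8 and csf1ra were at 0 in replicate 1. Of the 16 macrophage marker identifiers, 12 were above 0 in uncultured replicate 2 and 2 in replicate 1. cd74a and cd74b did not follow this split and were above 0 in every DP library. cd74a was at 2883.9 and 3262.1 CPM in uncultured replicates 1 and 2, and at 2942.1 CPM or more in the cultured libraries. The part of macrophages was not tested. In each DP comparison 17 of the partner identifiers were tested and 0 called.

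**Figure D5:**
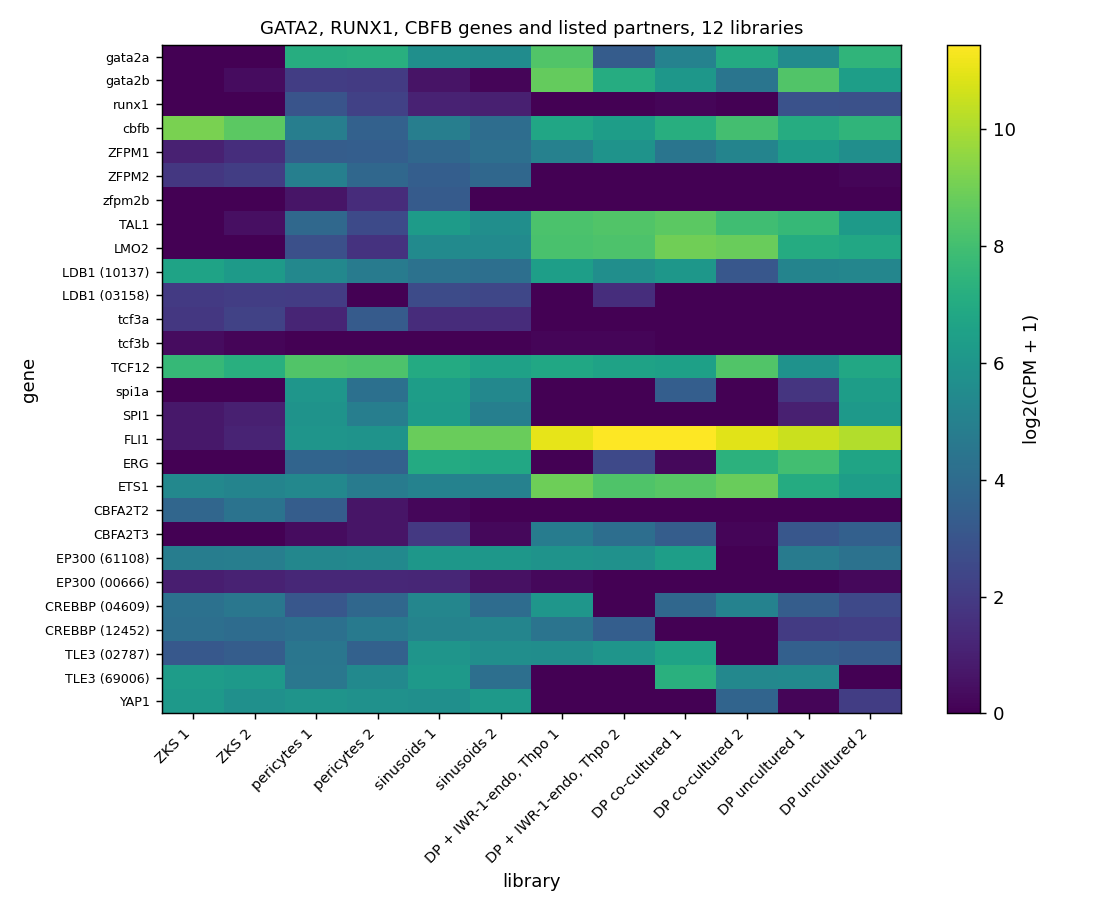
gata2a, gata2b, runx1, cbfb and the listed partner genes as log2(CPM + 1) in the 12 libraries, 1 column per library, with the last digits of the identifier where copies share a symbol. FLI1, TAL1 and LMO2 are bright in the DP columns and dark in the ZKS columns, and cbfb is bright in the ZKS columns.

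GATA genes outside the 9 were read through a list of 5, of which TRPS1, at 3.43 CPM or less, was not called in any niche comparison. gata4 was at 0 in all 12 libraries. GATA6 was at 0 and 1.01 CPM in ZKS cells, against 62.23 and 30.07 CPM in pericytes and, in sinusoids, 29.46 and 49.75 CPM, and fell in ZKS cells against pericytes (-5.15 ± 0.61, adjusted p = 0.00148) and sinusoids (-4.91 ± 0.61, adjusted p = 0.00175). GATA5, like GATA6 a factor of heart and endoderm, was at 12.13 and 35.22 CPM in pericytes, against 0.9 and 0 CPM in sinusoids (4.16 ± 0.66, adjusted p = 0.00603). GATA5 passed the filter through pericytes alone, so its tests describe the group that let it in. In all, 0 of 3 tested genes of this list rose and 2 fell in ZKS cells against pericytes, 0 rose and 1 fell against sinusoids, and 1 rose and 0 fell in pericytes against sinusoids, too few genes to set against the 37.2%, 31.6% and 25.4% of all genes called. gata1b was listed at 3.4 and 6.1 CPM in uncultured DP libraries and at 0 in the 4 cultured ones.

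The genes most like each family member were ranked by Pearson's r of log2(CPM + 1) over the 12 libraries, among 10407 genes, as a description with no test. These 12 points share groups of 2, and the DP libraries share many listed zeros. S1PR5 was nearest to gata2b (r = 0.969) and was listed at 815.2 and 246.4 CPM in treated, 131.8 and 151.0 CPM in co-cultured and 510.6 and 266.3 CPM in uncultured DP libraries, with 1.29 CPM as its highest niche value. EFNA1 was nearest to gata3 (r = 0.967), with 617.53 CPM in sinusoid replicate 2, and HMOX1, the heme oxygenase gene, followed among the 3 nearest (r = 0.96), with 6978.97 CPM there. For runx1 the nearest was zgc:92161 (r = 0.943), listed at 30.2 and 29.3 CPM in the uncultured DP libraries and at 2.0 CPM or less in the cultured ones. The nearest to runx2b was pfkfb1 (r = 0.978), to runx3 sfxn4 (r = 0.961), to cbfb hmga1a (r = 0.939), to gata2a ptgs1 (r = 0.892) and to gata1a PLA2G6 (r = 0.877). runx2a was above 0 in too few libraries to be ranked.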

How the data were processed

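The authors deposited 1 table of CPM per library, and each library's values share 1 total within rounding; HISAT2 2.1.0, Subread 1.6.4 and build GRCz11 are named, per the submitters' processing notes, with order and settings not given in the sources used here. No coordinates or sequences are printed, because the reference used here is of another build and held no sequence table. Symbols come from that reference's name table, which writes many of them in capitals, as for the orthologue; near-identical copies could share reads, so their values are uncertain. Columns of samples of other series numbered 0.

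In the 6 niche libraries the CPM step by the value of 1 read, and with it 100% of them are whole numbers of reads (tolerance 0.1 read), which gave the depth and the floor of 3 reads per library. In ZKS replicate 2 that value, 0.101 CPM, is near 0.1 CPM, which would leave 39.8% of its values whole. Its depth, floor and read counts are therefore less certain. Bounds on how far ZKS cells lay below another group use the floor of ZKS replicate 1. Bounds on how far ZKS cells lay above another group use the higher floor within that other group. Floors cover counting error only, since PCR reads without molecular identifiers are not independent; of the recovered counts above 0, even counts made up 54.26% to 61.04%, for a reason that was not tested. DP values are rounded to 0.1 CPM, with depth unknown and hence no floor.

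CPM were TMM-scaled with edgeR 4.0.16, put on the log2(CPM + 1) scale and tested two-sided with limma 3.58.1 (empirical Bayes with a trend, R 4.3.3), a scale on which low genes change less. A filter of 1 CPM in 2 or more libraries of the set left 15916 niche and 8795 DP genes. Each set was fitted at once (6 libraries, 3 groups, 3 residual degrees of freedom), and a gene was called at a Benjamini-Hochberg adjusted p under 0.05, adjusted over every gene in the fit. SEs are limma's moderated errors. With CPM as deposited, the median log2 change of all genes was 0.098, 0.033 and -0.118 in place of -0.153, -0.116 and -0.06 in ZKS cells against pericytes, ZKS cells against sinusoids and pericytes against sinusoids. In treated against uncultured DP cells it was -0.505 in place of -0.641. The script was tested on simulated data.

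The 9 genes, the lists and the tests were chosen with earlier results of these data known. Of the 3 genes most like each of the 9, as the rule allows, the text names the nearest and, for gata3, 1 more (r among genes with at least 10 CPM in at least 2 libraries; for genes above 0 in at least 4). It names from each list the called gene with the largest rise and fall per comparison. Other list genes, such as SP7, SPI1, gata1b, gata4, bglap and cdh17, were picked after their values were seen. Levels were ordered by group mean, and groups whose ranges overlapped are said to overlap. Alternatives were another pseudocount (0.5, 5), filter (none, 10 CPM), scaling, set of libraries, a replicate block, each library left out, and edgeR's quasi-likelihood test on recovered reads.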

Additional observations from a re-analysis of the deposited data

How the results depend on the processing

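Of 504 values of single genes under alternatives, 452 kept their side of the threshold, 46 lost a call and 6 gained one. Among values called in the main fit or the alternative, 0 reversed direction. Values called in neither fit could change direction and still count among the 452. The 452 thus do not give the share of calls that held. All 46 lost calls came from the niche comparisons, since the main fit called 0 of the 9 genes in DP cells. In ZKS cells the calls of gata2a, runx2a and cbfb were lost in 0 of the alternatives that could test them. Each other call was lost in at least 1. Of the 9 genes, the number called in ZKS cells against pericytes (7) was 3 with a filter of 10 CPM, 2 with edgeR on recovered reads and 2 to 5 with a library left out. In ZKS cells against sinusoids (6) it was 3 with edgeR and 3 to 5 with a library left out. In pericytes against sinusoids (3) it was 1 with all 12 libraries in one fit, a filter of 10 CPM or only the 4 libraries compared, 0 with edgeR and 1 to 3 with a library left out. In treated and in co-cultured against uncultured DP cells (0) it was 1 with all 12 libraries, runx1, lower. As runx1 was a gene of the sort, that fall cannot be told apart from the selection of uncultured cells. Fewer genes pass the 10 CPM filter (4 of the 9 in the niche). Against pericytes, runx2a and runx2b could not be tested in 4 of the 13 alternatives. They passed the filter through ZKS cells alone. They therefore left the test with the 10 CPM filter, without either ZKS replicate and in edgeR, which lacked ZKS replicate 2. The cause of the other shifts was not tested.

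Over all genes, the fit of 12 libraries called 3452 in ZKS cells against pericytes (5918 as reported), 2683 against sinusoids (5024 as reported), and 793, 609 and 495 in treated against uncultured, co-cultured against uncultured and treated against co-cultured DP cells (0 as reported). edgeR called 1060, 1246 and 1077 in ZKS cells against pericytes, ZKS cells against sinusoids and pericytes against sinusoids, and only the 4 libraries compared gave 2335 in the last (4036 as reported). With a library left out these ranged over 1832 to 4051, 1792 to 4698 and 1981 to 3847, and 0 to 0 in DP cells; a lone library was then assumed to vary like the other groups. edgeR ran on 5 libraries, chosen after seeing the data: the step of ZKS replicate 2, 0.101 CPM, lies too close to 0.1 CPM, so the planned test on 6 was not run.

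Replicate numbers showed no sign of pairing samples: deviations of same-numbered libraries correlated at 0.06, 0.02 and -0.01 in the niche and -0.01, 0 and 0 in DP cells. These correlations run over all genes of a set, so they cannot exclude a pairing with a weak effect. With the replicate block 6, 6 and 2 of the 9 genes and 5754, 4891 and 3813 genes overall were called in the niche comparisons, losing runx2b against pericytes (adjusted p = 0.0628) and runx1 in pericytes against sinusoids (adjusted p = 0.0627). Depth limits gata1a, gata2b, runx1, runx2a and runx2b, which rest on under 150 reads in each niche library.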
